A study of Mus musculus with 20 samples.

Results

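The receptors and transporters that bind antibody were followed in the lungs of 20 mice through 6 genes, taken by name from the 547 endogenous probes of the NanoString mouse Immunology panel. They are the 4 Fc gamma receptor genes Fcgr1, Fcgr2b, Fcgr3 and Fcgr4, and the transporter genes Fcgrt and Pigr. All 6 were found. The mice were male C57BL/6J animals bought at 5 to 8 weeks of age. For 4 weeks they ate either a control diet free of docosahexaenoic acid (DHA) or one in which this omega-3 fatty acid supplied about 1.4% of calories. Each then received 50 µL of saline or of 12.5% hog dust extract (HDE) through the nose, and its left lung was removed 5 h later. The groups held 4 mice fed the control diet and given saline, 6 fed it and given HDE, 3 fed the DHA diet and given saline and 7 fed the DHA diet and given HDE. Labels place the lungs in 3 experimental sets without saying which mouse belonged to which, so differences between sets remain within the groups.

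Fc gamma receptors are the proteins by which leukocytes bind the constant part of IgG. In the mouse, the products of Fcgr1, Fcgr3 and Fcgr4 are activating receptors that signal through a shared gamma chain, the product of Fcer1g, and the kinase Syk. The product of Fcgr2b is the inhibitory receptor and carries its own inhibitory motif. The other 2 proteins move antibody through cells. Fcgrt encodes the heavy chain of the neonatal Fc receptor, which pairs with beta-2 microglobulin, carries IgG across endothelium and epithelium and returns it from endosomes to blood. Pigr encodes the polymeric immunoglobulin receptor, with which airway epithelium carries dimeric IgA into the lumen.

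Pigr, Fcgr2b, Fcgr4 and Fcgr3 lie on chromosome 1 of the mouse. The last 3 of these are direct neighbours, with no other protein-coding gene between them in the RefSeq annotation of GRCm38.p6. Fcgrt lies on chromosome 7 and Fcgr1 on chromosome 3. The promoter windows of the 3 genes that changed with HDE are shown because these genes moved in both directions. Each runs from 250 bases before to 50 bases after the start of the gene, in the direction of transcription, and comes from RefSeq on GRCm38.p6. Pigr is at chr1:130826434-130826733 on the plus strand, Fcgr2b at chr1:170976022-170976321 on the minus strand and Fcgrt at chr7:45103773-45104072 on the minus strand. Capitals mark matches on either strand to AANNGAAA (the core bound by interferon regulatory factors), TTCNNNGAA (the GAS element of STAT factors), GAGGAA (the core bound by PU.1), CACGTG (an E box) or the NF-kB motif.
Pigr: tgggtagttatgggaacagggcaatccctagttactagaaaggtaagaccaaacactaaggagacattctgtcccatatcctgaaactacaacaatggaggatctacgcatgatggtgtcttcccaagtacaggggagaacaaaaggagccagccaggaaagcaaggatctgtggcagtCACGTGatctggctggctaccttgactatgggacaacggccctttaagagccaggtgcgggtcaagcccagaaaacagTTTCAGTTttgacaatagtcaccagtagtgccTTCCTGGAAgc
Fcgr2b: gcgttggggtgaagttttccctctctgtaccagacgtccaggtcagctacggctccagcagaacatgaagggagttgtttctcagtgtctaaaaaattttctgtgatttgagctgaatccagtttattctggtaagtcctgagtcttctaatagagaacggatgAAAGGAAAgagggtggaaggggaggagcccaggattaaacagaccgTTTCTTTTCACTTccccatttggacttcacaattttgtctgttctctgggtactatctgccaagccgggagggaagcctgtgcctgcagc
Fcgrt: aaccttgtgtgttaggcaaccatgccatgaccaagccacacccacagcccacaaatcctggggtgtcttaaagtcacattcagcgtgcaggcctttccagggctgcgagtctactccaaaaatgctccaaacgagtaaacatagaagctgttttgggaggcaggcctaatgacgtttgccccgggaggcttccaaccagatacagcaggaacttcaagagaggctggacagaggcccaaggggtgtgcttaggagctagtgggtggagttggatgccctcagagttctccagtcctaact
The Pigr window held 1 interferon regulatory factor core, 1 GAS element and 1 E box. In the Fcgr2b window there were 3 interferon regulatory factor cores, of which the last 2 overlap, and no match to the other motifs. None of the 5 motifs matched in the Fcgrt window. The windows of Fcgr1, Fcgr3 and Fcgr4 were searched too and are not shown. That of Fcgr4 held 1 interferon regulatory factor core, 1 PU.1 core and 1 NF-kB match, so such a core was not particular to the genes that changed. Each Fcgr3 window held 1 PU.1 core and 1 NF-kB match, and the Fcgr1 window 1 GAS element and 1 PU.1 core. Among 32851 promoter windows of the same length, 23.9% held the interferon regulatory factor core, 8.30% the GAS element, 28.3% the PU.1 core, 7.15% the E box and 4.51% the NF-kB motif. The matches describe letters and were not tested as binding sites.

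Levels are given as scaled counts, which are raw counts divided by a factor for each lane from the geometric mean of the housekeeping genes Oaz1, Ppia, Rpl19 and Eef1g. Probes differ in efficiency, so a level was compared between mice and never between genes. The endogenous probes of a lane summed to between 123536 and 684074 raw counts. Background, taken as the mean plus 2 SD of the 8 negative control probes of the lane, ranged from 7.75 to 97.5 scaled counts. It reached the count minimum of 82 in 2 shallow lanes, mouse 2 on the control diet given HDE and mouse 2 on the DHA diet given saline. Fcgr2b, Fcgr4, Fcgrt and Pigr were above background in 20 of 20 mice, Fcgr3 in 19 and Fcgr1 in 16. Fcgr1 had a mean scaled count of 47.7, below the minimum for testing, and the other 5 genes were tested.

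HDE was accompanied by more Pigr and Fcgr2b mRNA and less Fcgrt mRNA. Of the 5 genes tested, 2 were higher and 1 lower in the 13 mice given HDE than in the 7 given saline at an adjusted p under 0.05 (edgeR's quasi-likelihood test with diet in the model). Over the panel, 358 genes were tested, of which 42.5% were higher and 5.03% lower. The median log2 fold change of all genes tested was 0.47. A lung homogenate does not separate fewer cells of a type from less RNA per cell.

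**Figure D1:**
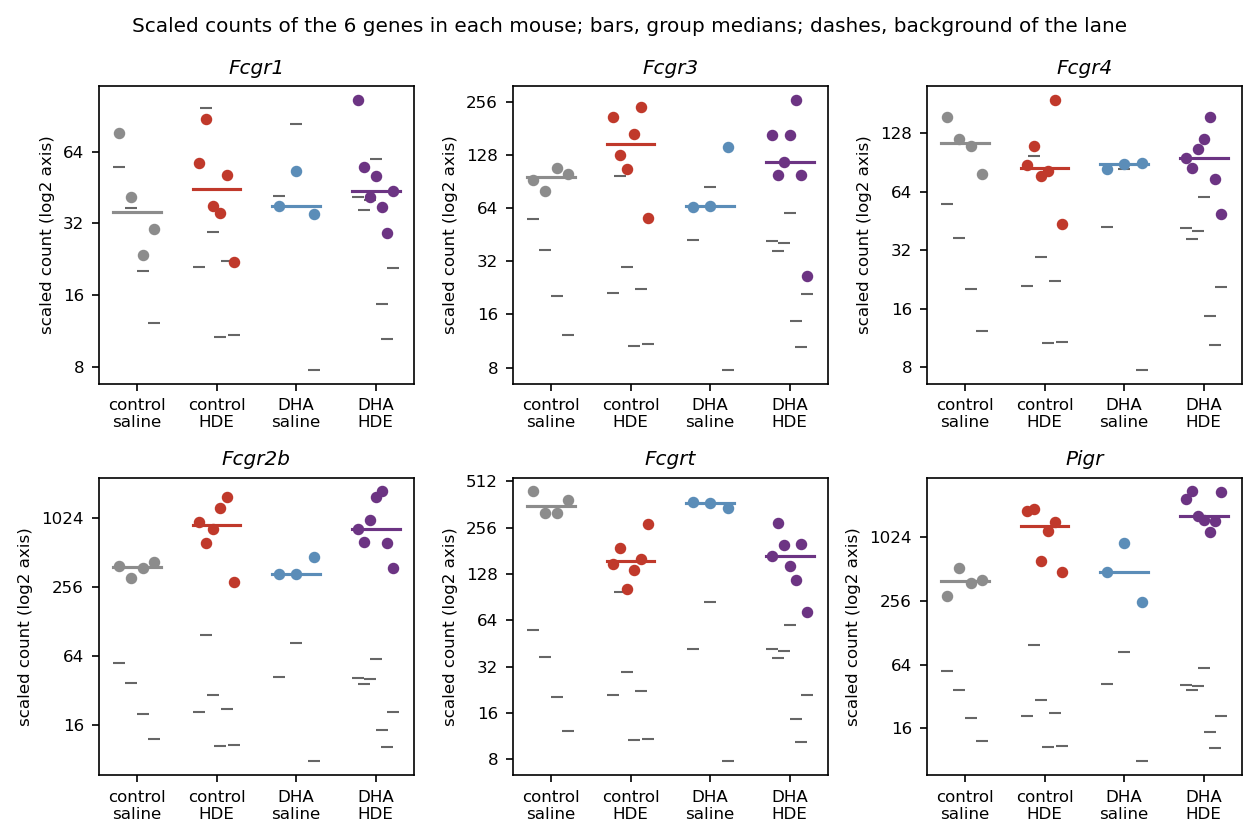
Scaled counts (log2 axis) of the 6 genes in each mouse, by diet and exposure. Points are mice, bars are group medians and dashes are the background of each mouse's lane. Fcgrt lay lower in all 13 mice given HDE than in any given saline, while Fcgr1 lay near the background. The share of all genes tested that separated in this way was not counted.

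Pigr was higher in most of the mice given HDE. On the control diet the saline mice had 289, 528, 380 and 403 scaled counts, and the saline mice on the DHA diet had 482, 912 and 251. After HDE, the control diet gave Pigr levels of 477 to 1899 (median 1306) and the DHA diet levels from 1145 to 2811 (median 1618). Every mouse on the DHA diet given HDE was above all 7 saline mice, and in all 11 of 13 HDE mice were. The exceptions were mice 3 and 6 on the control diet, with 617 and 477. Pigr was higher with HDE (log2 fold change 1.72, SE 0.31, n = 13 and 7, adjusted p = 1.48e-04 by edgeR), at the 84.4th percentile of the fold changes of all genes tested.

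Fcgr2b, the inhibitory receptor, was 389, 303, 372 and 420 scaled counts in the saline mice on the control diet. The saline mice on the DHA diet had 333, 333 and 465. With HDE and the control diet it spanned 281 to 1550 (median 881), and with HDE and the DHA diet 375 to 1746 (median 815). Again 11 of 13 HDE mice exceeded all saline mice. Mouse 6 on the control diet, with 281, was below every saline mouse, and mouse 7 on the DHA diet, with 375, lay among them. The log2 fold change was 1.31 (SE 0.31, 2.49-fold, adjusted p = 0.00155 by edgeR), at the 76.8th percentile of all genes tested.

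Fcgrt moved the other way. Its scaled counts were 442, 320, 317 and 388 in saline mice on the control diet and 376, 370 and 341 on the DHA diet. The HDE mice spanned 101 to 269 (median 154) with the control diet and 72.3 to 273 (median 167) with the DHA diet. The groups did not overlap, with 13 of 13 HDE mice below every saline mouse. How many of all genes tested separated to such a degree was not counted, here or for Pigr and Fcgr2b. Fcgrt fell by 1.12 on the log2 scale (SE 0.22, adjusted p = 2.84e-04 by edgeR), to 0.459 of its level after saline, at the 0.559th percentile of all genes tested.

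Fcgr3 and Fcgr4, both activating receptors for IgG, did not pass the test. Saline mice had Fcgr3 levels of 65.0 to 142 (median 91.7) and HDE mice 26.3 to 263 (median 128), so the groups overlapped. Its log2 fold change was 0.61 (SE 0.33, adjusted p = 0.138 by edgeR). Fcgr4 levels were 78.6 to 155 (median 89.5) in saline mice and 43.6 to 190 (median 87.5) in HDE mice. Its log2 fold change was -0.055 (SE 0.25, adjusted p = 0.875 by edgeR). Fcgr1, the high-affinity receptor, spanned 23.6 to 76.7 (median 38.0) in saline mice and 22.01 to 106 (median 43.8) in HDE mice, with 4 of 20 mice at or below the background of their lane.

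The scaling bears on these calls. TMM scaling, which assumes that most genes do not change, moved the median of all genes tested to -0.034, and the panel then split into 106 genes higher and 94 lower in place of 152 and 18. Pigr (1.26, adjusted p = 0.00167), Fcgr2b (0.68, adjusted p = 0.0163) and Fcgrt (-1.48, adjusted p = 5.73e-04) passed the test of edgeR in the same direction. With TMM scaling Fcgr4 was lower (-0.58, adjusted p = 0.0141) and Fcgr3 stood at -0.029. The lane names hold 2 run identifiers, called cartridges here. In cartridge 1 alone, which held 10 mice, Pigr was 1.83, Fcgr2b 1.40 and Fcgrt -1.03 on the log2 scale and all 3 passed. In cartridge 2 alone the values were 1.72, 1.17 and -1.20, with adjusted p = 0.0568, 0.168 and 0.0611, so that none passed. With cartridge as a block all 3 passed.

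Mouse 6 on the control diet given HDE stood close to the saline mice for Pigr, Fcgr2b and Fcgrt, and mouse 7 on the DHA diet given HDE had the lowest Fcgr3 of all. Without both, Pigr was 1.77, Fcgr2b 1.48 and Fcgrt -1.16, and Fcgr3 was higher with HDE (0.78, adjusted p = 0.00925 by edgeR). Fcgr3 also passed without mouse 7 alone (0.69, adjusted p = 0.0427) and without mice 3 and 6 of the control diet given HDE (0.74, adjusted p = 0.0443). Mouse 6 on the control diet given HDE also had low sums of several gene lists, given below.

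**Figure D2:**
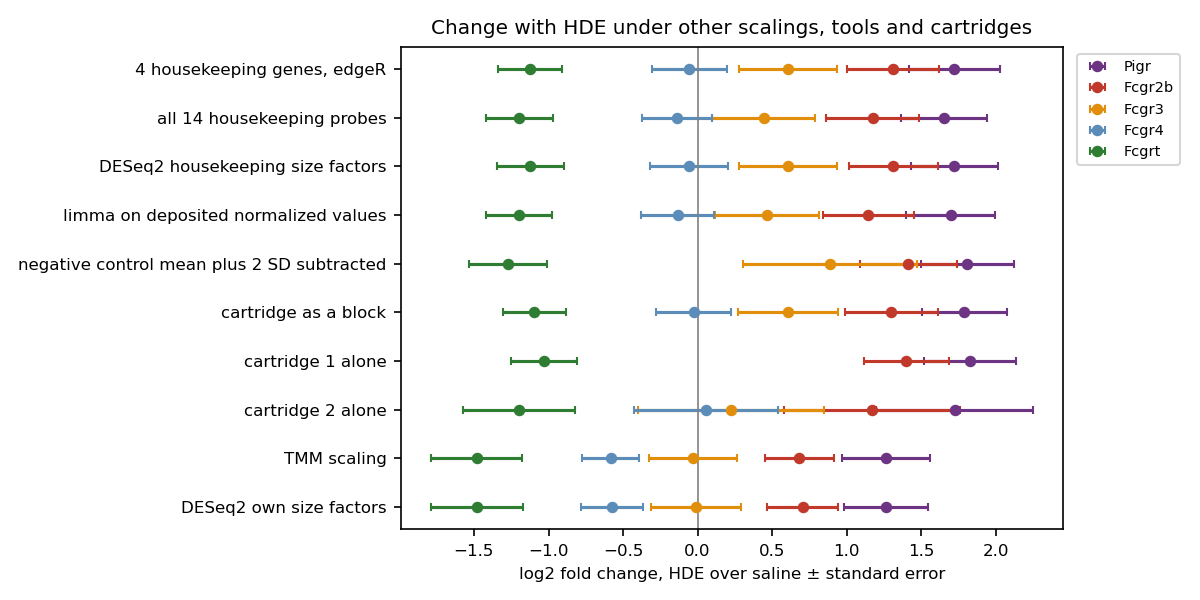
Log2 fold change of HDE over saline with its standard error for the 5 genes tested, under other scalings, tools, background subtraction and cartridges. Genes below the count minimum have no point. These were Fcgr4 with background subtracted, and Fcgr3 and Fcgr4 in cartridge 1 alone. Pigr and Fcgr2b lay above 0 and Fcgrt below 0 in every row, whereas Fcgr3 and Fcgr4 moved with the scaling, Fcgr4 from -0.055 to -0.58 with TMM.

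The response to HDE was also estimated within each diet, where the same 3 genes passed in the same directions. On the control diet Pigr was 1.63 (SE 0.42, adjusted p = 0.0102), Fcgr2b 1.29 (SE 0.43, adjusted p = 0.0345) and Fcgrt -1.13 (SE 0.31, adjusted p = 0.0137) on the log2 scale, by edgeR over 4 groups. Over the panel 25.1% of genes were higher and 0.838% lower there. On the DHA diet the values were 1.83 (SE 0.47, adjusted p = 0.00683), 1.34 (SE 0.47, adjusted p = 0.0345) and -1.11 (SE 0.32, adjusted p = 0.0136), against 30.4% of genes higher and 1.68% lower over the panel. No interaction of diet and HDE passed for any of the 5 genes, and 0% of the panel passed (0 of 358 genes with edgeR, 9 at an unadjusted p of at most 0.05). The interaction of Pigr was 0.21 with an SE of 0.58, so that a sizeable difference in either direction was within its error. The Fcgr2b call within each diet was the least steady. It was lost without 6 of the mice taken in turn on the control diet, with log2 fold changes from 1.07 to 1.36. On the DHA diet it was lost without 5 of the mice, with log2 fold changes from 1.13 to 1.52. With TMM scaling it was lost on both diets (0.79 and 0.56). Pigr also lost its call on the control diet with TMM scaling (1.12, adjusted p = 0.0532 by edgeR). On the DHA diet Pigr was lost without saline mouse 3 (1.48, adjusted p = 0.0610), and Fcgrt without saline mouse 1 (-1.08, adjusted p = 0.0521).

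None of the genes passed the adjusted threshold for diet. Over 20 mice 0% of the panel passed (0 of 358 genes with edgeR, 14 at an unadjusted p of at most 0.05). Pigr was higher on the DHA diet by 0.59 on the log2 scale (SE 0.27, unadjusted p = 0.0432, adjusted p = 0.924 by edgeR), where 1.12% of the panel was higher at that unadjusted threshold. The value was 0.41 in cartridge 1 alone and 0.57 in cartridge 2 alone, and 0.48 (unadjusted p = 0.0748) with cartridge as a block. It was 0.44 without saline mouse 2 on the DHA diet and 0.36 without mice 3 and 6 on the control diet given HDE. Over the 13 HDE mice Pigr was 0.66 (SE 0.35, unadjusted p = 0.0809 by edgeR), and 0% of the 357 genes tested passed (17 at an unadjusted p of at most 0.05). That value was 0.15 in cartridge 1 alone and 0.95 in cartridge 2 alone. It was 0.30 without mice 3 and 6 of the control diet, and 0.39 without mouse 6 of the control diet and mouse 7 of the DHA diet. Its levels overlapped between the diets, as 4 of the 6 mice on the control diet lay within the range of the DHA diet. Among the saline mice it was 0.45 (SE 0.47), where 0% of genes passed (1 at an unadjusted p of at most 0.05). Fcgr2b, Fcgr3, Fcgr4 and Fcgrt lay between -0.14 and 0.057 on the log2 scale for diet over 20 mice, with SE from 0.21 to 0.31.

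**Figure D3:**
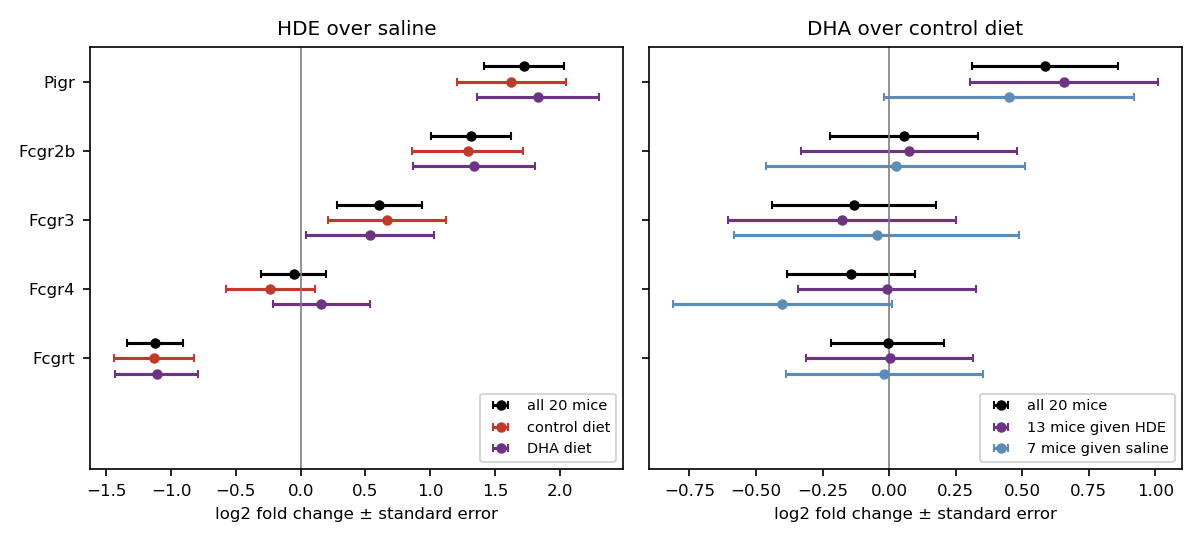
Log2 fold changes with standard errors of the 5 genes tested, for HDE over saline (left) and the DHA diet over the control diet (right). Pigr and Fcgr2b rose and Fcgrt fell with HDE on either diet, and in the diet comparison only Pigr (0.59) lay more than 2 standard errors from 0 over 20 mice.

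Ratios within a lane do not depend on the scaling by housekeeping genes. They were computed as the difference of log2(scaled count + 1), and HDE was compared with saline by a two-sided exact permutation test that permuted mice within diets, with p-values adjusted over 5 ratios. The ratio of the activating Fcgr4 to the inhibitory Fcgr2b was -1.32, -1.34, -1.76 and -2.40 in the saline mice on the control diet and -1.99, -1.90 and -2.36 on the DHA diet. With HDE it spanned -3.90 to -2.50 (median -3.20) on the control diet and -3.69 to -2.87 (median -3.09) on the DHA diet. All 13 HDE mice were below all 7 saline mice. The share of all genes whose ratio to Fcgr2b separated in this way was not counted, and neither was such a share for the ratios below. The ratio fell by 1.28 (exact permutation p = 3.97e-05, the smallest these permutations can give, adjusted p = 1.98e-04). With the housekeeping scaling Fcgr4 stood at -0.055 and Fcgr2b at 1.31, so there the fall repeats the rise of Fcgr2b. With TMM scaling both genes moved (-0.58 and 0.68).

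For Fcgr3 to Fcgr2b the ratio ranged from -2.34 to -1.70 after saline and from -3.78 to -2.18 after HDE, a fall of 0.68 (exact permutation p = 8.33e-04, adjusted p = 0.00208), with 9 of 13 HDE mice below all saline mice. Fcgr1 to Fcgr2b fell by 0.95 (exact permutation p = 0.0273, adjusted p = 0.0342), with 8 of 13 below. These ratios share Fcgr2b as denominator and hold its rise, so they are not separate results on the activating receptors. The ratios moved with background subtraction. When the mean of the negative controls was subtracted, Fcgr4 to Fcgr2b was -1.31 (adjusted p = 3.97e-04), whereas Fcgr3 to Fcgr2b was -0.29 and Fcgr1 to Fcgr2b -0.53, neither past the exact permutation test (adjusted p = 0.568 for both). When the mean plus 2 SD was subtracted, the values were -1.06 (adjusted p = 0.0854), -0.012 and -0.11 by the exact permutation test, and none of the 3 passed.

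Fcgrt set against B2m, the gene of its partner chain, ranged from -5.86 to -5.06 after saline and from -7.54 to -4.95 after HDE. It fell by 1.32 (exact permutation p = 0.00151, adjusted p = 0.00251), with 10 of 13 HDE mice below all saline mice and 1 above, mouse 6 on the control diet. B2m itself was 0.18 (SE 0.20, adjusted p = 0.503 by edgeR). The fall was 1.46 and 1.53 with the 2 kinds of background subtraction, and both passed. Fcgr3 to Fcer1g differed by -0.62 (exact permutation p = 0.150). No ratio passed the test between diets, the smallest adjusted p of 5 being 0.342 by the exact permutation test within exposures.

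**Figure D4:**
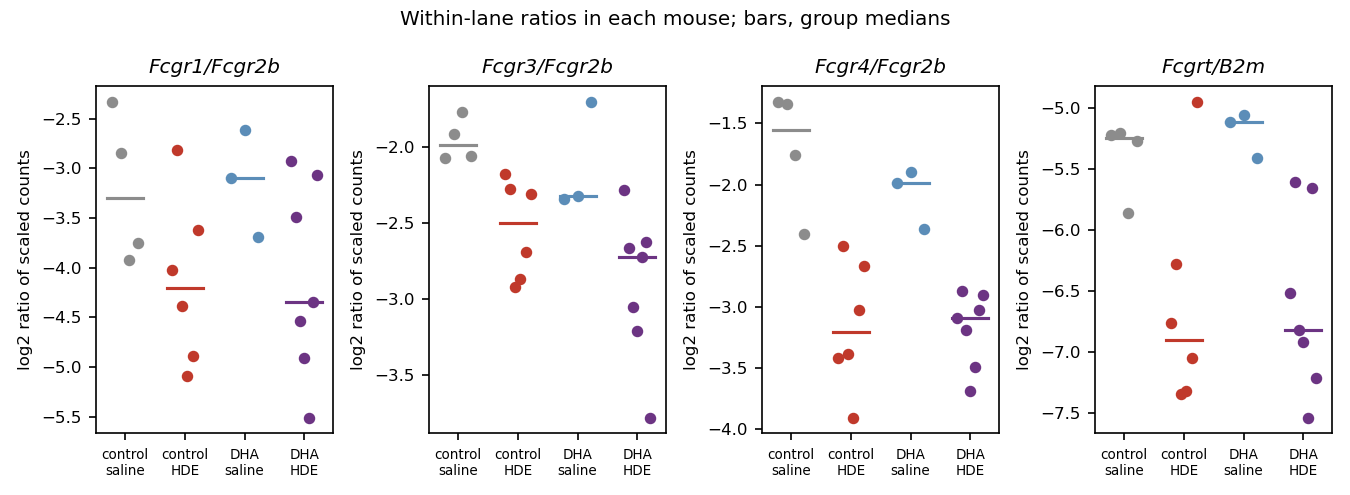
Log2 ratios of scaled counts within each lane, by diet and exposure, with a point for each mouse and a bar at the group median. Fcgr4 to Fcgr2b was at or above -2.40 in every saline mouse and at or below -2.50 in every HDE mouse, and Fcgrt to B2m was lower in 10 of 13 HDE mice than in any saline mouse. The share of other gene ratios that separated in this way was not counted.

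Genes around the receptors were followed as lists, whose counts stand beside the 42.5% of the panel that was higher with HDE and the 5.03% that was lower. Of the 8 Fc receptor signalling genes tested, 4 were higher with HDE and 0 lower (edgeR, 0 lower also by unadjusted p at the same threshold), with a median log2 fold change of 0.53 beside 0.47 for all genes. Both the share higher and the median were close to those of the panel. The 4 were Fcer1g, the shared gamma chain (1.21, SE 0.30), Syk, the kinase it recruits (1.20, SE 0.31), Tyrobp, another adaptor with an activating motif (0.94, SE 0.26), and Ptpn6, the phosphatase SHP-1 that inhibitory receptors recruit (0.59, SE 0.18). Fyn, Btk, Lcp2 and Ptpn22 were at -0.026, 0.079, 0.28 and 0.47 and did not pass. Interferons raise Fcgr1 and Fcgr4 in mouse macrophages. Of the 15 interferon-induced genes tested, 10 were higher with HDE and 0 lower, among them Cxcl10 (4.85), Ifitm1 (1.73) and Stat2 (1.17), with a list median of 1.02. Signals that raise PIGR in human epithelial cell lines, such as TNF, interleukin-1 and NF-kB, formed another list. Of its 12 genes tested 9 were higher and 0 lower, among them Il1b (4.92), Il1a (3.87), Tnf (3.64) and Nfkb2 (2.43), and the list median was 1.33. Il17a, Ifng and Il4, from the same list, were below the count minimum.

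Markers of other cell types were counted in the same way, beside the same 42.5% and 5.03% of the panel. All 6 neutrophil genes tested were higher with HDE, among them S100a8 (2.99) and Trem1 (2.52), and the summed level of the list spanned 1643 to 5178 (median 2282) in saline mice and 999 to 62597 (median 12094) in HDE mice. Of the 9 monocyte and macrophage genes tested, 4 were higher and 0 lower, a share close to that of the panel, with Cd14 (3.95) and Msr1 (1.73) higher and Csf1r (0.19) and Cx3cr1 (0.0018) not past the test. Emr1 (-0.17), Ccr2 (0.089) and Itgax (0.27) did not pass either. The summed level of that list was 1688 to 2483 (median 2005) in saline mice and 1370 to 13903 (median 7443) in HDE mice. Cd14 alone averaged 310 scaled counts in saline mice and 4976 in HDE mice. The rise of the sum is therefore mostly that of Cd14 and does not measure the number of these cells. Endothelium and epithelium, which carry much of the Fcgrt and Pigr of a lung, had few markers on the panel. Of the 4 endothelial genes tested Sele was higher (2.89) and 0 were lower, while Pecam1 (-0.21), Cdh5 (-0.26) and Icam2 (-0.50, adjusted p = 0.0807 by edgeR) did not pass. Their summed level was 4287 to 8653 (median 6840) in saline mice and 2315 to 10358 (median 5023) in HDE mice. The epithelial genes Muc1 (0.43) and Itga6 (-0.16) did not pass, and their sum was 3992 to 4687 after saline and 2904 to 8468 after HDE. In mouse 6 on the control diet given HDE, the neutrophil (999) and monocyte and macrophage (1370) sums were below those of every saline mouse. So were its sums of the Fc signalling (1594), interferon-induced (2915) and PIGR signal (3788) lists. The same held for its endothelial (3714), B and plasma cell (1679) and thymocyte and T cell (338) sums and for B2m (8326). Low levels in this mouse were thus not limited to genes of inflammation. Its epithelial sum (4513) lay within the saline range, as did that of mast cells and basophils (93.9). Its lane had the highest housekeeping factor of all lanes (2.54), by which raw counts were divided. Whether this scaling made its levels low was not tested.

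B cells carry Fcgr2b as their Fc gamma receptor, and of the 5 B and plasma cell genes tested Cd79b (-0.50) and Ms4a1 (-0.50) were lower and Xbp1 (0.91), which many secretory cells use, was higher. The sum of that list was 1921 to 2834 after saline and 1679 to 5548 after HDE. Xbp1 alone averaged 1575 after saline and 2999 after HDE, so the sum mostly follows that gene. None of the 7 thymocyte and T cell genes tested passed (edgeR, 1 higher at an unadjusted p of at most 0.05), but their sum was 18564 in mouse 3 on the control diet given HDE, against 338 to 2745 in the other 19 mice. On the control diet alone 6 of the 7 were higher with HDE (25.1% of the panel was), and on the DHA diet 0 of 7 passed in either direction. Without mouse 3, the genes of the list above the count minimum on the control diet numbered 3, and 0 of them passed (edgeR, 1 higher at an unadjusted p of at most 0.05). Kit, for mast cells, was 0.30 and did not pass. The part of these markers in the changes of the 6 genes was not tested.

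The genes most like each member were named by Pearson's r of log2 scaled counts over the 20 mice, as a description, since the points share the exposure groups and the genes of a mouse share its lane scaling. Fcgr2b was most like Fas (r = 0.96) and Lilrb4 (0.95), Fcgr3 like Tlr4 (0.91) and Ifih1 (0.88), and Fcgr4 like Entpd1 (0.79) and Tlr4 (0.76). Fcgrt was most like Nox4 and Cd55 (0.83 for both), and Pigr like Cxcl3 and Cfb (0.91 for both). Fcgr1 was most like Psmb5 (0.75) and C3 (0.74), at levels near background. After group means were removed, Fcgrt had r = 0.60 with Nox4 and 0.82 with Cd55. Pigr then had 0.71 with Cxcl3 and with Cfb, while Fas and Fcgr2b had 0.95. Within the family, Fcgr2b and Fcgr3 had r = 0.80, and 0.88 with group means removed. Fcgr2b and Fcgr4 had 0.48 and 0.80, and Fcgr3 and Fcgr4 0.67 and 0.77. Over the 20 mice with TMM scaling these 3 pairs had 0.67, 0.0014 and 0.55. Fcgrt and Pigr had r = -0.65 over the 20 mice and -0.064 with group means removed.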

How the data were processed

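RNA of left lung was measured on the nCounter Sprint with the mouse Immunology panel. The authors deposited raw counts per probe and lane, without background subtraction, and a normalized table, used here as a signal, in which the authors multiplied the counts of endogenous and housekeeping probes by 1 factor per lane from the same 4 housekeeping genes. Lane names hold 2 run identifiers, which also differ in run date. They are called cartridges here, and cartridge and run date cannot be told apart. Replicate numbers only name mice. Members and gene lists were chosen with earlier results of these data known.

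The raw counts were tested with edgeR 4.0.16 in R 4.3.3 (quasi-likelihood test, offsets from Oaz1, Ppia, Rpl19 and Eef1g), for genes whose scaled counts averaged 82 or more in the mice compared, with Benjamini-Hochberg adjustment and a threshold of 0.05. Numbers of genes past an unadjusted 0.05 are also given, since that is the study's threshold. Models held exposure and diet (20 mice), diet (13 HDE mice) or the 4 groups. The code was tested on simulated counts. Alternatives used TMM, all 14 housekeeping probes, DESeq2 1.42.0, limma 3.58.1 on the deposited log2 signal + 1, other count filters, background subtraction (floor 1), cartridge as a block or alone, and each mouse left out in turn. Subtraction of the negative control mean alone, the pair of mice left out together and the thymocyte list without 1 mouse were added after the data were seen. No 2 lanes agreed within counting noise. Named genes were the 6 members, the Fc signalling list, B2m, the 2 genes most like each member and up to 4 genes of each other list by smallest p for HDE. Other list genes given with values were chosen after their values were seen.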

Additional observations from a re-analysis of the deposited data

Results flagged for a closer look

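In 33 groups of 4 to 7 values, 3 held a mouse far from the others of its group, by the gap to its nearest neighbour over the range. Chance gives about 1 in 20. Fcgr3 was 26.3 scaled counts in mouse 7 on the DHA diet given HDE, the lowest of its group, and the log2 ratio of Fcgr3 to Fcer1g was -4.84 in the same mouse. Both flags rest on the same raw count of 24, which lay near the lane's background of 19.0. The log2 ratio of Fcgrt to B2m was -5.86 in mouse 3 on the control diet given saline, below the other 3 saline mice of that diet, at -5.27 to -5.20.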

How the results depend on the processing

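Pigr, Fcgr2b and Fcgrt kept their direction with HDE under every alternative that tested them, and cartridge 2 alone was the one under which they lost the adjusted threshold (1.72, 1.17 and -1.20 on the log2 scale, 0 higher and 0 lower). With 82 scaled counts required in every mouse Fcgrt was not tested and 0 members were lower. TMM and DESeq2's own size factors gave 2 lower, with Fcgr3 at -0.029 and -0.011 and Fcgr4 at -0.58 and -0.57. Fcgr4 was 0.059 in cartridge 2 alone, 0.093 without mice 3 and 6 of the control diet given HDE and 0.087 without mouse 6 of the control diet and mouse 7 of the DHA diet, both given HDE. Without these pairs Fcgr3 passed at 0.74 and 0.78. With each mouse left out in turn Fcgr3 ranged from 0.49 to 0.80 and Fcgr4 from -0.21 to 0.050. The causes were not tested. DESeq2 with its own size factors called 112 genes higher and 94 lower for HDE, and cartridge 2 alone 26 higher and 0 lower.

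Within diets, TMM gave 0 members higher on the control diet and 1 on the DHA diet, where Fcgr3 was -0.26 and Fcgr4 -0.51. Leaving out mice gave 1 to 2 higher on the control diet, and 0 to 2 higher and 0 to 1 lower on the DHA diet.

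Values near 0 changed sign without passing the test. For diet over 20 mice, Fcgr2b was -0.042 with TMM, -0.030 with 14 housekeeping probes, -0.013 with DESeq2's own size factors and -0.10 without mice 3 and 6 of the control diet given HDE. Fcgrt was 0.12 in cartridge 1 alone, 0.045 without those mice and 0.19 without mouse 6 of the control diet and mouse 7 of the DHA diet given HDE, and Fcgr3 was 0.037 in cartridge 2 alone. For diet over 13 HDE mice, Fcgr2b was -0.14 with TMM, -0.040 with 14 housekeeping probes, -0.095 with DESeq2's own size factors, -0.089 in cartridge 2 alone and -0.19 without mice 3 and 6. Fcgrt was -0.28 with TMM, -0.11 with 14 housekeeping probes, -0.23 with DESeq2's own size factors, -0.037 with limma, -0.0026 with background subtracted, -0.11 with cartridge as a block and -0.36 in cartridge 2 alone, and Fcgr4 was 0.053 with limma. For the interaction, TMM gave -0.23 for Fcgr2b and -0.31 for Fcgrt, and cartridge as a block -0.022 for Fcgrt. Among saline mice TMM gave 0.086 for Fcgr3 and 0.031 for Fcgrt for diet.

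With each mouse left out, diet over 20 mice ranged from -0.081 to 0.19 for Fcgr2b, -0.25 to 0.039 for Fcgr4 and -0.11 to 0.11 for Fcgrt. Over 13 HDE mice the ranges were -0.14 to 0.29 for Fcgr2b, -0.44 to 0.0063 for Fcgr3, -0.16 to 0.30 for Fcgr4 and -0.16 to 0.19 for Fcgrt. Among saline mice they were -0.16 to 0.11 for Fcgr2b, -0.54 to 0.15 for Fcgr3, -0.082 to 0.083 for Fcgrt and -0.13 to 0.80 for Pigr. The interaction ranged from -0.17 to 0.27 for Fcgr2b, -0.39 to 0.36 for Fcgr3, -0.14 to 0.21 for Fcgrt and -0.14 to 0.79 for Pigr.

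Of the ratios with HDE, subtraction of the mean plus 2 SD gave -0.11 for Fcgr1 to Fcgr2b, -0.012 for Fcgr3 to Fcgr2b, -1.06 for Fcgr4 to Fcgr2b and 0.0094 for Fcgr3 to Fcer1g, and subtraction of the mean gave -0.53 and -0.29 for the first 2. Fcgr1 to Fcgr2b ranged from -1.08 to -0.81 with each mouse left out, and lost the threshold without 6 of them. For diet, Fcgr1 to Fcgr2b was -0.44 and -0.48 with the 2 subtractions and -0.14 with cartridge means removed (-0.083 to 0.21 with each mouse left out), and Fcgrt to B2m was -0.017 with cartridge means removed (-0.032 to 0.29).

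Depth limits the low genes. Background reached 97.5 scaled counts in the shallowest lanes, above Fcgr1 and near Fcgr3 and Fcgr4. No paired analysis was possible because replicate numbers carry no pairing.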
